A study of Saccharomyces cerevisiae with 12 samples.

Results

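The genes for the proteins of the cytosolic ribosome were picked out of a budding yeast (Saccharomyces cerevisiae) microarray series by their symbols in the array annotation. A gene probe was a member if its symbol was RPL or RPS with digits and an optional A or B, or was RPP0, RPP1A, RPP1B, RPP2A or RPP2B. RPP1, which belongs to RNase P, was left out. This gave 127 of 6388 gene probes for 125 distinct symbols, because the symbols RPL35A and RPL9B were each given to a second probe. Of them, 69 belonged to the large subunit outside the stalk, 5 to the stalk of the large subunit and 53 to the small subunit. The rule used no measured value. Of the 137 symbols of this form in the RefSeq gene table, 12 were not analysed here. RPL35B and RPL9A were among them, and whether the second probes of RPL35A and RPL9B measure these genes was not tested.

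A ribosome has a large subunit, which joins amino acids and carries a flexible stalk that recruits translation factors, and a small subunit, which reads the messenger RNA. In budding yeast most of its proteins are encoded by a pair of near-identical genes, called A and B, that arose from a whole-genome duplication. Ribosomal protein genes are among the most heavily transcribed genes of a growing yeast cell, they share the activators Rap1, Fhl1, Ifh1 and Sfp1, and they are known to be turned down together when the TOR kinase is inhibited or the cell is stressed.

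The series held 12 two-colour arrays of 3 strains, each without and with rapamycin at 1 µg/ml for 60 min, with 2 cultures from separate colonies per group. The strains were WT (HHY168), YGP200 with FRB-tagged Mot1 (Mot1-FRB) and YGP201 with FRB-tagged NC2β, the NCB2 product (NCB2-FRB). FRB is a rapamycin-binding domain, and Mot1 and NC2β both act on the TATA-binding protein. In anchor-away strains rapamycin ties the FRB-tagged protein to an FKBP12 fusion of a ribosomal protein, which carries it out of the nucleus. By general knowledge of this system rather than from the labels, HHY168 and its descendants carry a rapamycin-resistant TOR1 allele, lack FPR1 and have RPL13A fused to FKBP12. One of the members is therefore the anchor itself, in all 6 groups, untreated WT included. Each tagged strain has a single strain name in the labels, and whether it stands for 1 clone was not tested.

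On each array 1 culture was set against a common reference of untreated WT cRNA, and the culture carried Cy3 on arrays of letter a and Cy5 on those of letter b. Values below are log2(culture/reference) for single cultures and log2 differences ± SE from limma for comparisons, with 2 arrays per group. The words rose and fell are kept for members with an adjusted p under 0.05, taken by Benjamini-Hochberg over all 6388 probes. Where a count has no share over all probes beside it, no excess over that share is read from it. The number of arrays limits the precision, and each SE draws on the spread within all 6 groups. The array of treated WT culture a was dim, with a median signal of 69.7 and 71.3% of all probes above the blank spots. The 11 others had medians of 412 to 1231 and 95.6% to 99.5% of probes above the blanks. In a bulk culture, fewer cells making a transcript and less transcript per cell cannot be told apart.

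Many member spots were bright, and their signal was measured before any comparison. With a limit of 32768 units, 105 members exceeded it in the culture or the reference channel of at least 1 array, and 22 did so on no array. In Cy5 between 23.2% and 82.3% of the member spots were over the limit on the 11 brighter arrays, against at most 1.65% of the other gene spots, and in Cy3 at most 16.9%. On each array the members supplied 96 to 125 of the 200 brightest gene spots, and so made up much of the bright end of the loess curve used to remove dye bias. The 22 members at or below the limit comprised 10 of 74 large-subunit members, stalk included, and 12 of 53 small-subunit members. RPS8A, RPL41A, RPL41B and RPL3 were over the limit in the culture channel of both arrays of at least 1 group, so their changes are not given singly. None of the 4 was called.

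In WT cells rapamycin left the ribosomal protein genes near their untreated level. The median change over the 127 members was 0.0024 against 0.0043 over all probes, and limma called 0 members lower and 0 higher, as it did for all probes (0% in both directions). At an unadjusted p under 0.05 it called 0 lower and 1 higher, and with the letter as a replicate block it again called 0. The member with the smallest p was RPS30B, a small-subunit protein (0.19 ± 0.074), followed by RPL4B (0.14 ± 0.076), whose product lines the peptide exit tunnel, and RPS14A (0.13 ± 0.078), each with an adjusted p of 1.00. Both treated cultures lay below both untreated ones for 15 members (11.7% of all probes did so) and above them for 12 (12.2%). With median centring of each array in its place the members' median was -0.28 (all probes -0.050), and with centring on external control spots it was -0.21 (all probes 0.021), with 0 members called in either case.

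**Figure D1:**
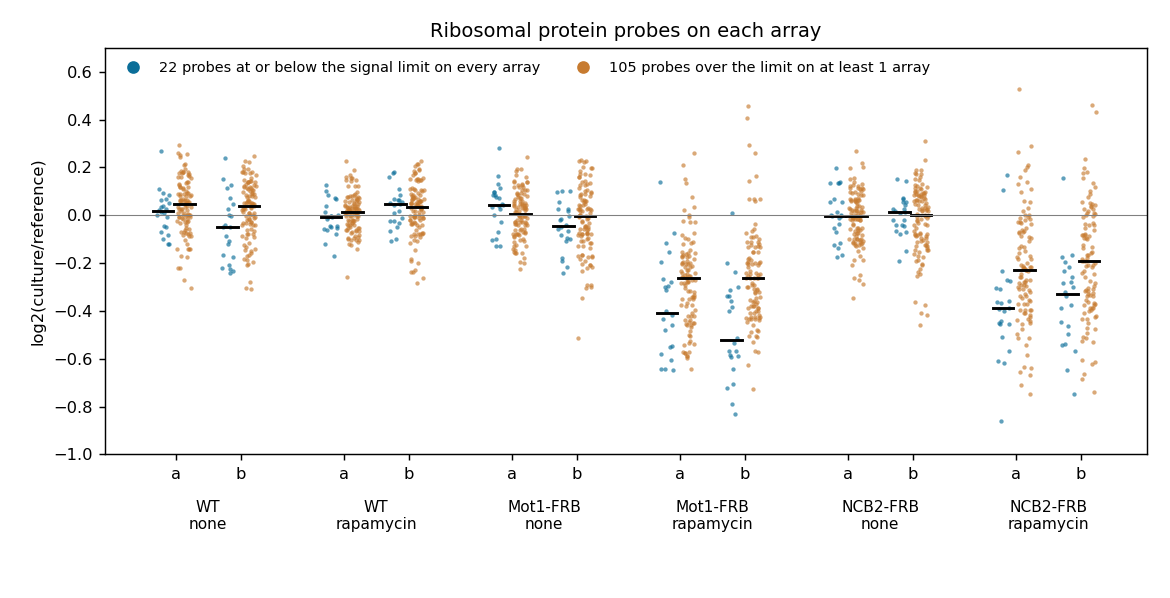
Each point is 1 ribosomal protein probe on 1 array. The vertical axis is log2(culture/reference), the columns are the 12 arrays by group and letter, blue points are the 22 probes at or below the signal limit on all arrays, orange points the 105 others, and black bars their medians. The medians lie near 0 in both WT groups and in the untreated tagged strains and below 0 on all 4 arrays of the treated tagged strains.

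In Mot1-FRB cells rapamycin lowered the transcripts of 59 ribosomal protein members and raised 0, against 15.3% of all probes lower and 22% higher. The members' median change was -0.30, or 1.23-fold lower, where the median over all probes was 0.0097, and 118 of 127 had a value below 0. Both treated cultures lay below both untreated ones for 101 members (31.5% of all probes) and above them for 2 (35.8%). The median was -0.30 in the letter a pair of cultures and -0.27 in the letter b pair. With the replicate block 97 members fell and 0 rose (28.5% of all probes lower, 33.9% higher). The count was 38 without untreated culture a and 39 without treated culture b of Mot1-FRB. It was 1 with median centring and 0 with centring on external controls, with medians of -0.27 and -0.43 (all probes 0.071 and -0.090). With median centring the median for Mot1-FRB minus WT over all 127 members was 0.0082. By that median the Mot1-FRB decrease did not exceed that in WT. The 22 members at or below the signal limit had a median of -0.23 there, and the 105 others had 0.058.

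Among the members whose signal never passed the limit, the lowest in Mot1-FRB cells was RPL36A, a large-subunit protein. It measured -0.64 and -0.59 in the treated Mot1-FRB cultures against 0.043 and 0.019 in the untreated ones, and between -0.12 and 0.068 in the 4 WT cultures. The treated tagged cultures were thus the low ones, with no overlap. The change was -0.65 ± 0.082 (limma, adjusted p = 0.000362), a level 1.57-fold lower.

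RPL37A and RPL37B encode near-identical copies of a large-subunit zinc-binding protein. RPL37A measured -0.55 and -0.71 in the treated against 0.085 and -0.084 in the untreated Mot1-FRB cultures, and RPL37B measured -0.65 and -0.64 against 0.034 and -0.057. For both genes the treated and untreated cultures were separate. The changes were -0.63 ± 0.079 (adjusted p = 0.000335) and -0.63 ± 0.081 (adjusted p = 0.000385).

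The other members named by the rule for Mot1-FRB were RPL7A and RPS11A, a large-subunit and a small-subunit protein. RPL7A went from 0.044 and 0.20 to -0.58 and -0.44 and RPS11A from 0.031 and 0.23 to -0.52 and -0.43. Treated and untreated cultures did not overlap, with changes of -0.63 ± 0.12 (adjusted p = 0.00289) and -0.61 ± 0.11 (adjusted p = 0.00239). RPL7A was over the signal limit on 11 arrays and RPS11A on 7, so their size is less certain than that of RPL36A.

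In NCB2-FRB cells 46 members fell and 2 rose with rapamycin, against 18.2% of all probes lower and 22.8% higher. The median change was -0.21 (1.16-fold lower, all probes -0.0061), and 108 of 127 values were below 0. Both treated cultures lay below both untreated ones for 72 members (33.1% of all probes) and above them for 7 (33.6%). With the replicate block 72 fell and 6 rose (30.8% and 31.8% of all probes). The authors' deposited normalized values gave 77 lower and 5 higher with a median of -0.38. The share and median over all probes in those values are not given here, so these figures cannot be set against that background. Both centrings left 0 called, with medians of -0.098 and -0.13. With them the median for NCB2-FRB minus WT over all 127 members was 0.16 and 0.058. By that median the NCB2-FRB decrease did not exceed that in WT. The 22 members at or below the signal limit had medians of -0.12 and -0.22 there, and the 105 others had 0.19 and 0.087.

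The lowest member was RPS9A, which encodes a protein that binds early to the rRNA of the small subunit. It measured -0.86 and -0.75 in the treated NCB2-FRB cultures against -0.053 and 0.14 in the untreated ones. In Mot1-FRB it measured -0.64 and -0.51 against -0.13 and 0.025, and in WT it lay between -0.059 and 0.24. The 4 treated tagged cultures were the lowest of the 12, and the probe never passed the signal limit. The change was -0.85 ± 0.11 in NCB2-FRB (adjusted p = 0.000306, 1.80-fold lower) and -0.53 ± 0.11 in Mot1-FRB (adjusted p = 0.00479).

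RPS28B, a small-subunit protein near the path of the messenger RNA, also stayed at or below the limit. It went from 0.0026 and 0.056 to -0.61 and -0.46 in NCB2-FRB and from -0.071 and -0.0011 to -0.58 and -0.57 in Mot1-FRB. Treated and untreated cultures were separate in both strains. The changes were -0.57 ± 0.075 (adjusted p = 0.000373) and -0.54 ± 0.075 (adjusted p = 0.000578).

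The 3 other lowest members in NCB2-FRB passed the signal limit on 5 to 8 arrays. RPS16A, whose protein reaches the decoding site, went from -0.067 and 0.13 to -0.75 and -0.62 (-0.72 ± 0.099, adjusted p = 0.000478). RPS18A, a protein of the small-subunit head, went from -0.018 and -0.087 to -0.71 and -0.74 (-0.67 ± 0.078, adjusted p = 0.000189). RPL20A, of the large subunit, went from -0.0077 and -0.0042 to -0.65 and -0.60 (-0.62 ± 0.052, adjusted p = 3.36e-05). In all 3 the treated cultures lay well below the untreated ones.

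The 2 members that rose in NCB2-FRB were RPL29 and RPS12, which encode a large-subunit and a small-subunit protein from single genes. RPL29 went from -0.17 and -0.073 to 0.29 and 0.13 (0.33 ± 0.11, adjusted p = 0.0412) and RPS12 from -0.088 and 0.098 to 0.20 and 0.46 (0.33 ± 0.11, adjusted p = 0.041). The groups did not overlap, but the probes passed the limit on 11 and 10 arrays. With the authors' deposited values RPS12 had -0.0086. RPL29 no longer passed without any 1 of the 4 WT arrays, the 4 NCB2-FRB arrays or the 2 untreated Mot1-FRB arrays, with adjusted p up to 0.182. RPS12 no longer passed without any 1 of the 4 WT arrays, untreated NCB2-FRB culture a or treated NCB2-FRB culture b, with adjusted p up to 0.246.

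The 22 members at or below the limit had lower medians than the 105 others in the values computed here, but not in the authors' deposited values, where the medians were -0.36 against -0.37 in Mot1-FRB and -0.35 against -0.39 in NCB2-FRB. In Mot1-FRB 17 of the 22 fell with a median of -0.44, and 42 of the 105 fell with a median of -0.25. In NCB2-FRB 16 of the 22 fell with a median of -0.39, and of the 105, 30 fell and 2 rose with a median of -0.19. With the replicate block 20 of the 22 and 77 of the 105 fell in Mot1-FRB, and 20 and 52 fell in NCB2-FRB. Over all probes 15.3% were lower in Mot1-FRB, and in NCB2-FRB 18.2% were lower and 22.8% higher. The block raised the shares of lower probes to 28.5% and 30.8%. Values were below 0 for all 22 in Mot1-FRB and for 21 of 22 in NCB2-FRB. This split used signal and not the changes, but it was made after the data had been seen, and the 2 sets were not compared by a test.

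**Figure D2:**
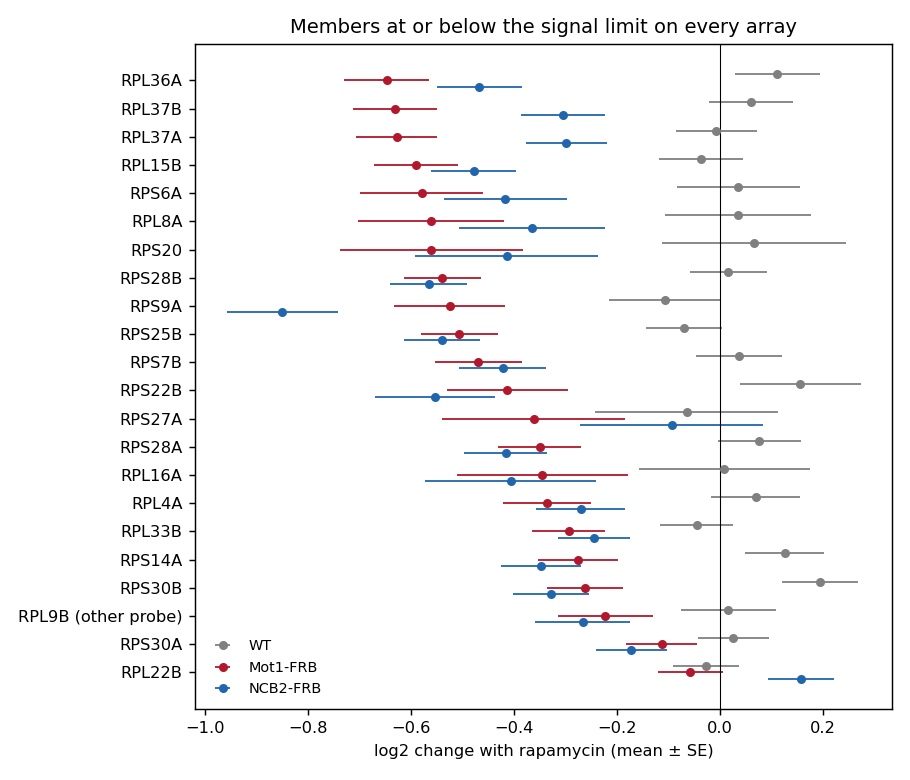
Log2 change with rapamycin (horizontal axis, mean ± SE from limma, 2 arrays per group) for the 22 probes at or below the signal limit on all 12 arrays, ordered by the Mot1-FRB value. Grey points are WT, red Mot1-FRB and blue NCB2-FRB. RPL36A is lowest in Mot1-FRB at -0.65 and RPS9A lowest in NCB2-FRB at -0.85, while RPL22B lies near 0 in Mot1-FRB and above it in NCB2-FRB.

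RPL22B, a minor copy of a large-subunit protein, was the 1 member of the 22 with a value above 0 in NCB2-FRB. It measured 0.14 and 0.011 in the treated against 0.16 and 0.10 in the untreated Mot1-FRB cultures, and 0.17 and 0.16 against 0.056 and -0.041 in NCB2-FRB. The Mot1-FRB cultures overlapped and the NCB2-FRB cultures did not. Its changes of -0.058 ± 0.064 (adjusted p = 0.518) and 0.16 ± 0.064 (adjusted p = 0.0784) did not pass. The others of the 22 that passed in neither strain were RPL16A, RPS27A and RPS30A, whose values were -0.35, -0.36 and -0.11 for Mot1-FRB against -0.41, -0.094 and -0.17 for NCB2-FRB. With the replicate block RPL16A passed in both strains (adjusted p = 0.00331 and 0.00118), RPS27A in Mot1-FRB (0.00338), and RPS30A (0.0323) and RPL22B (0.0189) in NCB2-FRB, where RPL22B was higher.

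How far the 105 bright members moved depended on the dye correction. Their medians of -0.25 and -0.19 became -0.21 and -0.15 with print-tip loess, -0.22 and -0.075 with median centring, and -0.38 and -0.11 with centring on external controls. With the spots over the limit kept out of the loess curve the median of the 105 was -0.39 in Mot1-FRB and -0.39 in NCB2-FRB. With all member spots kept out of it, the medians were -0.50 and -0.38. In the authors' deposited values, whose curve also left out nearly saturated spots, the medians were -0.37 and -0.39. Over these settings and the others shown in the plot of medians by setting, the median of the 22 lay between -0.36 and -0.58 in Mot1-FRB and between -0.25 and -0.44 in NCB2-FRB. Across probes, the changes computed here and those in the authors' deposited values had r = 0.863 over the 22 and 0.496 over the 105 for Mot1-FRB, against 0.912 and 0.536 for NCB2-FRB. These r describe the same hybridisations processed in different ways.

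**Figure D3:**
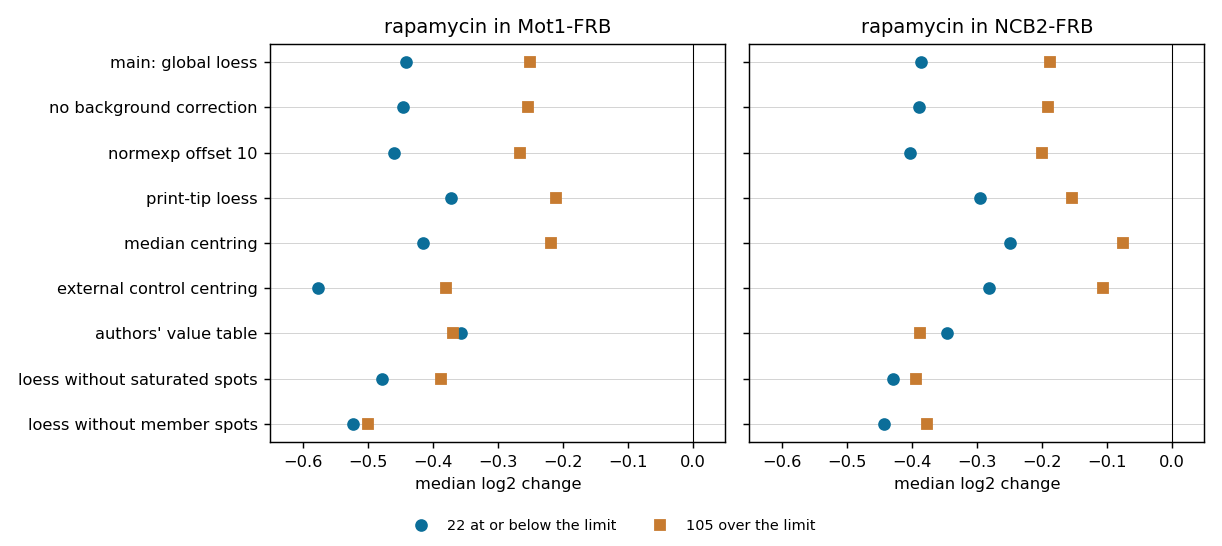
Median log2 change with rapamycin (horizontal axis) of the 22 members at or below the signal limit (blue circles) and the 105 others (orange squares) under 9 ways of processing the same arrays (vertical axis), in Mot1-FRB (left) and NCB2-FRB (right). The circles lie below 0 throughout, between -0.36 and -0.58 at left and between -0.25 and -0.44 at right. The squares lie between -0.21 and -0.50 at left and between -0.075 and -0.39 at right.

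The medians of the large and the small subunit lay close together. In Mot1-FRB 32 of 74 large-subunit members fell (median -0.29) and 27 of 53 small-subunit members fell (median -0.30). In NCB2-FRB 25 of 74 large-subunit members fell and 1 rose (median -0.20), and 21 of 53 small-subunit members fell and 1 rose (median -0.25). The shares over all probes were 15.3% lower and 22% higher in Mot1-FRB, and 18.2% lower and 22.8% higher in NCB2-FRB. The sign of the Mot1-FRB difference between the subunits' medians was not settled: without untreated culture b it was -0.030, without treated culture a -0.0077, and over the 22 members -0.012. Members with an A or B copy fell in 54 of 105 cases in Mot1-FRB (median -0.31) and in 43 of 105 in NCB2-FRB (median -0.25). Of the 17 single-copy members 4 fell in Mot1-FRB (median -0.17), and in NCB2-FRB 2 fell and 2 rose (median -0.087). No fall beyond the shares over all probes is read from so few single-copy members. Beside that count, 16 of the 17 single-copy members and 84 of the 105 others passed the signal limit on some array, and the part of this in the difference was not tested.

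The stalk genes were RPP0 for its base and RPP1A, RPP1B, RPP2A and RPP2B for the acidic P proteins. Of these 5, 1 fell in each tagged strain. Over all probes 15.3% were lower in Mot1-FRB and 18.2% in NCB2-FRB, so the stalk count lay near those shares. Their median was -0.21 in Mot1-FRB and -0.10 in NCB2-FRB, and all 5 passed the signal limit on some array. RPP1A measured -0.19 and -0.19 in the treated against 0.083 and 0.20 in the untreated Mot1-FRB cultures, and -0.46 and -0.34 against -0.25 and 0.044 in NCB2-FRB. It fell in both strains without overlap, by -0.34 ± 0.095 (adjusted p = 0.0211) and -0.29 ± 0.095 (adjusted p = 0.0343). It no longer passed in Mot1-FRB without untreated culture b (0.125), treated culture a (0.0706) or treated culture b (0.0825), nor in NCB2-FRB without treated culture a (0.149) or untreated culture b (0.233). The values of RPP1B, RPP2A and RPP2B in Mot1-FRB were -0.23, -0.16 and -0.21, and none of them passed. In the authors' deposited values RPP2A had 0.32 in Mot1-FRB (limma, adjusted p = 0.0474) and 0.37 in NCB2-FRB (adjusted p = 0.0248). In those values RPP1B had -0.33 (adjusted p = 0.00924) and RPP2B -0.42 (adjusted p = 0.00341) in NCB2-FRB. Which stalk genes passed thus depended on the processing.

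The RPP0 values split by letter. They were -0.30, -0.26, -0.20, -0.45, -0.14 and -0.31 in the letter a cultures of WT, treated WT, Mot1-FRB, treated Mot1-FRB, NCB2-FRB and treated NCB2-FRB. The letter b cultures of the same groups gave 0.14, 0.19, 0.11, 0.068, 0.19 and 0.16. All letter a values were below all letter b values, whatever the strain or treatment. Its changes of -0.15 ± 0.25 in Mot1-FRB and -0.10 ± 0.25 in NCB2-FRB did not pass (adjusted p = 0.689 and 0.783).

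RPL40A, RPL40B and RPS31 encode ubiquitin fused to a ribosomal protein and so supply both. RPL40B measured -0.53 and -0.50 in the treated against -0.068 and -0.18 in the untreated Mot1-FRB cultures, and -0.51 and -0.33 against -0.053 and -0.036 in NCB2-FRB. Its changes were -0.39 ± 0.073 (adjusted p = 0.00293) and -0.38 ± 0.073 (adjusted p = 0.00322), a fall in each strain. RPL40A had -0.30 ± 0.15 and -0.20 ± 0.15 and RPS31 had 0.0069 ± 0.15 and -0.087 ± 0.15, with none past the threshold. RPS31 had -0.81 in Mot1-FRB in the authors' deposited values (adjusted p = 0.00117).

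RPL13A, the anchor, measured -0.41 and -0.49 in the treated against 0.031 and 0.027 in the untreated Mot1-FRB cultures, and -0.44 and -0.39 against 0.098 and 0.18 in NCB2-FRB. In WT it was 0.028 and 0.11 with rapamycin and 0.11 and 0.027 without. The 4 treated tagged cultures were the low ones, and the probe passed the signal limit on 1 array. It fell by -0.48 ± 0.062 (adjusted p = 0.000421) and -0.55 ± 0.062 (adjusted p = 0.000165), and its decrease exceeded that in WT by -0.48 ± 0.088 (adjusted p = 0.00614) and -0.55 ± 0.088 (adjusted p = 0.00268). Whether the probe also binds the transcript of its paralogue RPL13B was not tested.

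The strains were then compared by the difference of their rapamycin effects. For Mot1-FRB minus WT 31 members were lower and 0 higher (6.7% and 12.7% of all probes), with a median of -0.27. For NCB2-FRB minus WT 32 were lower and 0 higher (8.95% and 14.5%), with a median of -0.23. These comparisons share the 4 WT arrays. The replicate block gave 64 lower for Mot1-FRB, and 58 lower and 3 higher for NCB2-FRB (19.3%, 22.9% and 25.5% of all probes). Both centrings gave 0. Median centring turned the medians to 0.0082 and 0.16, and external control centring turned that of NCB2-FRB minus WT to 0.058. The authors' deposited values gave 57 lower for Mot1-FRB, and 59 lower and 2 higher for NCB2-FRB, without the shares over all probes beside them. The 31 became 14 to 19 without either untreated array, either treated array of Mot1-FRB, either untreated WT array or treated WT culture b, and 21 without the dim array of treated WT culture a. The 32 became 17 without untreated NCB2-FRB culture b, 20 without untreated WT culture a and 19 without treated WT culture b.

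The member with the lowest value for Mot1-FRB minus WT was RPL36A (-0.76 ± 0.12, adjusted p = 0.00286), followed by RPL37B (-0.69 ± 0.11, adjusted p = 0.00402). For NCB2-FRB minus WT the lowest was RPS9A (-0.74 ± 0.15, adjusted p = 0.00837), followed by RPS22B, a small-subunit protein (-0.71 ± 0.17, adjusted p = 0.0146). RPS22B measured -0.45 and -0.54 in the treated against 0.069 and 0.045 in the untreated NCB2-FRB cultures and 0.10 and 0.055 against 0.069 and -0.22 in WT. NCB2-FRB fell and WT overlapped. All 4 probes stayed at or below the signal limit.

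Between the tagged strains, limma called 0 members lower and 0 higher in NCB2-FRB than in Mot1-FRB (0.219% and 0.282% of all probes), with a median difference of 0.049. With the replicate block it called 5 lower and 9 higher (8.56% and 7.81% of all probes). At an unadjusted p under 0.05 it called 1 lower and 12 higher, and with the authors' deposited values 4 lower and 4 higher. Those last counts lack the share over all probes, so no lean in either direction is read from them. The smallest p belonged to RPS29B, a zinc-binding small-subunit protein, followed by RPS1A and RPL2A. RPS29B went from -0.034 and 0.075 to -0.37 and -0.26 in Mot1-FRB and from -0.098 and -0.013 to 0.0019 and 0.24 in NCB2-FRB. The treated cultures lay below the untreated ones in Mot1-FRB and above them in NCB2-FRB. The difference was 0.51 ± 0.13 (adjusted p = 0.123, and 0.00339 with the replicate block), and the probe was over the limit on 10 arrays. RPS1A had 0.43 ± 0.12 and RPL2A 0.35 ± 0.11.

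The members that fell in the tagged strains overlapped in 37 members, which is 62.7% of the Mot1-FRB list and 80.4% of the NCB2-FRB list. Over all probes 69.8% of the Mot1-FRB list and 58.6% of the NCB2-FRB list were shared. No member fell in 1 strain and rose in the other, and 59 fell in neither. Across the 127 probes the changes in the 2 strains had r = 0.597, and across the 22 probes 0.613. These probes share their arrays, dyes and signal range, so the r is given as a description.

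**Figure D4:**
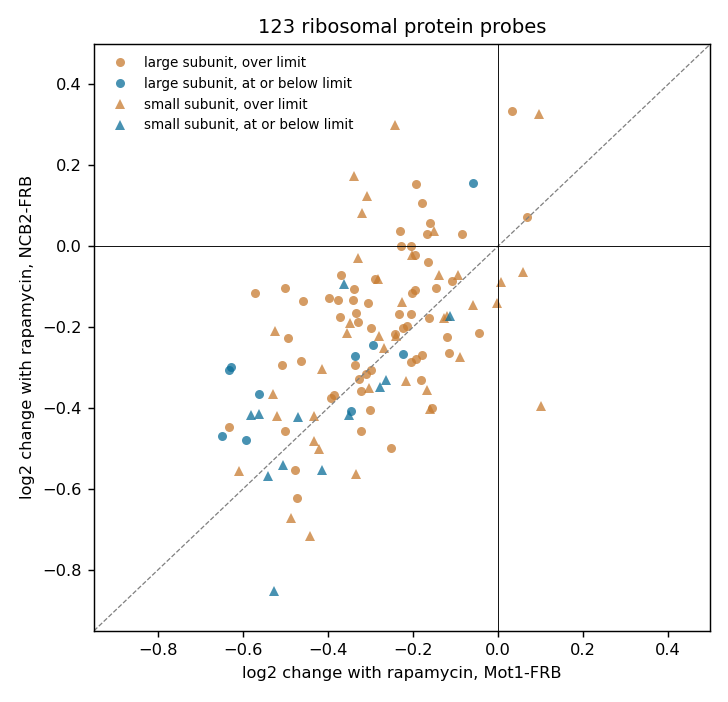
Log2 change with rapamycin in Mot1-FRB (horizontal axis) against NCB2-FRB (vertical axis) for 123 probes, leaving out the 4 that were over the signal limit on both arrays of a group. Circles are large-subunit and triangles small-subunit members, blue at or below the limit and orange over it, and the dashed line marks equal values. Most points lie below and to the left of 0, with RPS9A lowest on the vertical axis at -0.85.

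Before rapamycin no member passed the threshold between a tagged strain and WT. For untreated Mot1-FRB minus untreated WT limma called 0 members lower and 0 higher (0.11% and 0.861% of all probes), and at an unadjusted p under 0.05 it called 0 and 1. The replicate block called 1 lower, RPS9A, and 0 higher (1.99% and 5.03% of all probes), and the authors' deposited values called 3 lower. The smallest p belonged to RPS14A (0.21 ± 0.078, adjusted p = 0.403), RPL16B (-0.18 ± 0.087) and RPS27B (-0.20 ± 0.094). For untreated NCB2-FRB minus untreated WT it also called 0 and 0 (0% and 0.0157%), with 4 lower and 0 higher at an unadjusted p under 0.05, and the block and the authors' deposited values called 0 as well. The smallest p belonged to RPL2A (-0.25 ± 0.077), RPS18B (-0.28 ± 0.097) and a probe of RPL35A (-0.32 ± 0.12). Each had an adjusted p of 1.00 and was over the signal limit on 11 arrays. The other probe with the RPL35A symbol had -0.16 ± 0.064.

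A and B copies could be compared in 46 pairs. In Mot1-FRB both copies fell in 14 pairs, A alone in 7, B alone in 12 and neither in 13. In NCB2-FRB the counts were 13, 3, 8 and 22. The A change differed from the B change by over 0.25 in 10 pairs in Mot1-FRB, 8 in NCB2-FRB and 1 in WT (RPL21), where the median SE of such a difference was 0.13. The 10 became 17 without untreated Mot1-FRB culture a, the 8 became 14 without treated NCB2-FRB culture a, and the authors' deposited values gave 24 and 25. Copies of nearly the same sequence can bind each other's transcript on an array, probe sequences were not used here, and the share of such binding was not tested.

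**Figure D5:**
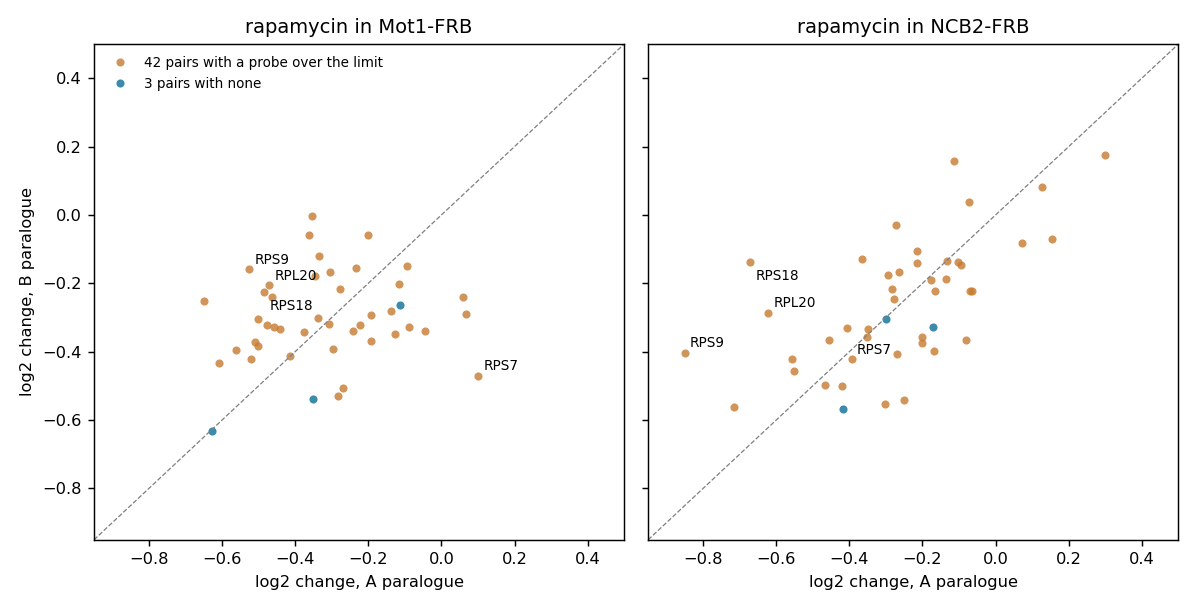
Log2 change with rapamycin of the A copy (horizontal axis) against the B copy (vertical axis) for 45 paralogue pairs in Mot1-FRB (left) and NCB2-FRB (right). Orange marks the 42 pairs with a probe over the signal limit and blue the 3 pairs with none, the dashed line marks equal values, RPL41 is left out, and 4 of the pairs with the largest mean difference are named. RPS9, RPS18 and RPL20 lie above the line in both panels, with the A copy lower.

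Among the pairs with the largest mean difference over the tagged strains were RPS9, RPS18, RPL20 and RPS7. RPS9A minus RPS9B was -0.34 and -0.31 in the treated against -0.015 and 0.10 in the untreated Mot1-FRB cultures, and -0.52 and -0.36 against -0.11 and 0.13 in NCB2-FRB. The A copy was the lower one in all 4 treated tagged cultures. The A minus B change was -0.37 ± 0.13 and -0.45 ± 0.13, against -0.15 ± 0.13 in WT. RPS9B itself had -0.16 ± 0.059 in Mot1-FRB (adjusted p = 0.0627) and fell in NCB2-FRB (-0.40 ± 0.059, adjusted p = 0.000695).

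RPS18A fell in both strains, while RPS18B had -0.23 ± 0.097 and -0.14 ± 0.097 and did not pass (adjusted p = 0.098 and 0.296). The A minus B change was -0.26 ± 0.15 in Mot1-FRB and -0.53 ± 0.15 in NCB2-FRB, with no test made. For RPL20 it was -0.27 ± 0.15 and -0.34 ± 0.15. RPS7 went the other way in Mot1-FRB, where RPS7B fell (-0.47 ± 0.084, adjusted p = 0.00236) and RPS7A had 0.10 ± 0.21, an A minus B change of 0.57 ± 0.26. In NCB2-FRB that change was 0.029 ± 0.26. At least 1 probe of each of these 4 pairs passed the signal limit on 7 or more arrays.

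In 3 pairs both probes stayed at or below the limit. RPL37 showed nearly equal changes, with an A minus B change of 0.0038 ± 0.10 in Mot1-FRB and 0.0067 ± 0.10 in NCB2-FRB. RPS28 gave 0.19 ± 0.10 and 0.15 ± 0.10 and RPS30 gave 0.15 ± 0.095 and 0.16 ± 0.095. None of the 3 exceeded 0.25. In the untreated strains the pairs furthest from WT by the mean absolute difference were RPS27, RPS30, RPL21, RPS14 and RPL2, and only RPS30 exceeded 2 SE in both strains (-0.21 ± 0.095 and -0.19 ± 0.095), with no test made.

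Of 23 listed regulators of these genes 22 had a probe. In Mot1-FRB 5 fell and 3 rose (15.3% and 22% of all probes) and in NCB2-FRB 6 fell and 3 rose (18.2% and 22.8%), with medians of -0.17 and -0.062, so the counts lay near the shares over all probes. MSN4, a stress transcription factor, rose by 0.75 ± 0.074 (adjusted p = 0.000102) and 0.85 ± 0.074 (adjusted p = 4.16e-05). SFP1, an activator of ribosomal protein genes, rose from 0.10 and 0.13 to 0.48 and 0.55 in Mot1-FRB and from 0.045 and 0.015 to 0.71 and 0.74 in NCB2-FRB. Its treated and untreated cultures were separate in both strains. TOD6, a repressor of ribosome assembly genes, fell by -0.59 ± 0.087 and -0.37 ± 0.087, and UTP22, which links rRNA processing to Ifh1, fell by -0.27 ± 0.085 and -0.56 ± 0.085. RAP1, FHL1 and IFH1 did not pass in either strain, with values of -0.29, -0.16 and 0.044 for Mot1-FRB against -0.15, -0.045 and 0.22 for NCB2-FRB.

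Dedicated chaperones and import factors of ribosomal proteins had 11 of 13 listed genes on the array, and 7 fell in Mot1-FRB (15.3% of all probes) and 6 in NCB2-FRB (18.2%), with 0 rising (22% and 22.8% of all probes) and medians of -0.43 and -0.38. TSR4, which escorts the RPS2 product, went from 0.12 and -0.039 to -0.50 and -0.67 in Mot1-FRB and from 0.11 and 0.087 to -0.36 and -0.56 in NCB2-FRB. RRB1, the chaperone of the RPL3 product, went from 0.072 and 0.056 to -0.42 and -0.61 in Mot1-FRB and from 0.18 and 0.16 to -0.21 and -0.40 in NCB2-FRB. Both genes fell in both strains with no overlap, and none of the 11 probes passed the signal limit. The changes were -0.62 ± 0.090 and -0.55 ± 0.090 for TSR4 and -0.58 ± 0.083 and -0.47 ± 0.083 for RRB1.

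Of 12 ribosome-associated factors, all on the array, 5 fell in Mot1-FRB (15.3% of all probes) and 4 in NCB2-FRB (18.2%) and 0 rose (22% and 22.8% of all probes), with medians of -0.26 and -0.13. EGD1, a subunit of the nascent chain-associated complex, fell by -0.41 ± 0.088 (adjusted p = 0.00561) and -0.49 ± 0.088 (adjusted p = 0.0021). ARD1, the catalytic subunit of an N-terminal acetyltransferase, fell by -0.32 ± 0.059 and -0.63 ± 0.059. ZUO1, a chaperone at the exit tunnel, fell in Mot1-FRB (-0.43 ± 0.068, adjusted p = 0.00122) and had 0.040 ± 0.068 in NCB2-FRB. In WT none of the genes of these 3 lists passed the threshold.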

How the data were processed

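RNA from 12 yeast cultures was hybridised on 2-colour oligonucleotide arrays against a common reference, with 6 arrays per dye orientation. The deposited spot intensity values are Imagene foreground and background readings of 15552 spots per array, taken on an Agilent scanner per the labels' protocols. The authors' deposited value table holds log2(culture/reference), which per the labels' protocols came from print-tip loess with span 0.4 without background subtraction, with saturated and absent spots kept out of the curve, and a correction of gene-specific dye bias. It was used as an alternative. Its direction was checked against the spot intensities.

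From the spot intensities, background was corrected with normexp (offset 50), and each array was normalized by loess (span 0.3, 4 iterations) on the 12776 gene spots, leaving out 1872 external control and 904 blank or quality spots. The 2 spots of a probe were averaged and every ratio was turned to culture over reference. limma 3.58.1 in R 4.3.3 was fitted to all 6388 probes and all 6 groups (6 residual and 3.00 prior degrees of freedom), and p-values were adjusted by Benjamini-Hochberg over all probes. The same script was tested on simulated data. The signal limit of 32768 was set here, on the mean of a probe's spots in either channel. In the settings and probe sets made here, a saturated probe or spot is one over this limit. The array annotation gave no symbol for 1062 probes. Figures used Python 3.11.15, pandas 2.3.3 and matplotlib 3.10.9.

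The letters a and b mark the dye orientation. Deviations of same-letter arrays from their group means correlated in all 15 pairs of groups (0.482 to 0.817, median 0.66), so the letters pair the samples, and a fit with the letter as a block was an alternative. Letter, culture and dye cannot be told apart. The cultures came from separate colonies per the labels.

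The genes named were RPL13A, the stalk genes, the ubiquitin fusions, up to 5 members with the lowest and 5 with the highest change past the threshold in each comparison, and otherwise the 3 with the smallest p. To these came the 5 most different paralogue pairs (1 is not reported here), the few members saturated in a whole group, and up to 4 genes of each other list. RPS9B, RPS7A, RPS7B, RPL22B, RPL16A, RPS27A, RPS30A, RAP1, FHL1 and IFH1 were named after their values were seen. The members, lists and tests were chosen with earlier results of these data known. Alternatives were no background correction, a lower offset, print-tip loess, median and external control centring, the authors' values, 2 loess curves without saturated or member spots (added after seeing the data), 2 probe filters, the block, the compared groups alone and each array left out.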

Additional observations from a re-analysis of the deposited data

Results flagged for a closer look

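Of the 31 and 32 members whose rapamycin effect in Mot1-FRB and in NCB2-FRB differed from that in WT by the test of the difference itself (limma, adjusted over all probes), the 5 with the lowest values in each strain are given here. No group had enough arrays for a check of single outlying samples. In Mot1-FRB the differences were -0.76 ± 0.12 for RPL36A, -0.69 ± 0.11 for RPL37B, -0.62 ± 0.11 for RPL37A (adjusted p = 0.00529), -0.62 ± 0.17 for RPS6A (adjusted p = 0.0332) and -0.61 ± 0.15 for RPS11A (adjusted p = 0.0241). RPS6A, whose protein is phosphorylated downstream of TOR, measured -0.48 and -0.83 in the treated against 0.038 and -0.19 in the untreated Mot1-FRB cultures. Its treated cultures were the lower ones, and WT lay between -0.12 and 0.023. The call for RPS6A was lost without any 1 of 8 arrays and that for RPS11A without any 1 of 4.

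In NCB2-FRB the differences were -0.74 ± 0.15 for RPS9A, -0.71 ± 0.17 for RPS22B, -0.70 ± 0.11 for RPS18A (adjusted p = 0.00251), -0.66 ± 0.14 for RPS16A (adjusted p = 0.00936) and -0.60 ± 0.17 for RPS3 (adjusted p = 0.0318). RPS3, a protein at the entry of the messenger RNA channel, measured -0.64 and -0.49 in the treated against -0.27 and 0.099 in the untreated NCB2-FRB cultures, without overlap. It was over the signal limit on 11 arrays, and its call was lost without any 1 of 5 arrays. The call for RPS22B was lost without treated WT culture a (adjusted p = 0.0508).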

How the results depend on the processing

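The direction of the members' median in both tagged strains held under every alternative run, while the counts of members called did not. With median centring and with external control centring the counts were 1 and 0 in Mot1-FRB, 0 and 0 in NCB2-FRB and 0 for both strains minus WT, where the medians turned to 0.0082 (Mot1-FRB, median centring), 0.16 and 0.058 (NCB2-FRB, median and external centring). External centring shifted the median of all probes for Mot1-FRB minus WT to -0.13 and median centring to 0.10. The authors' deposited values called 82 members in NCB2-FRB, 57 for Mot1-FRB minus WT, 61 for NCB2-FRB minus WT, 8 between the tagged strains and 3 for untreated Mot1-FRB. Loess without saturated spots called 76 in NCB2-FRB and turned the median between the tagged strains to -0.015. Loess without member spots called 100, 81 and 69 (Mot1-FRB, NCB2-FRB, Mot1-FRB minus WT), with fewer spots left at the bright end of the curve. The shares over all probes for these loess curves and for the authors' deposited values are not given here. No stronger member effect is read from these counts. Over the 22 probes saturated on no array the counts were 17, 16, 13 and 11, with fewer probes to call, and the untreated medians turned to 0.036 and 0.013. With the replicate block, which pairs arrays by letter, the counts were 97, 78, 64, 61, 14 (between the tagged strains) and 1 (untreated Mot1-FRB).

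Leaving out 1 array gave 38 to 63 in Mot1-FRB, 33 to 48 in NCB2-FRB, 14 to 32 for Mot1-FRB minus WT, 17 to 31 for NCB2-FRB minus WT, a large minus small subunit median of -0.030 to 0.048 and 0.024 to 0.069, and 10 to 17 and 8 to 14 paralogue pairs over 0.25. That subunit difference was 0.054 and 0.094 with print-tip loess, 0.12 and 0.15 with the authors' deposited values, 0.039 and 0.074 without member spots, 0.0079 and 0.077 over probes above the blanks, -0.012 and 0.12 over unsaturated probes, and in Mot1-FRB 0.030 with either centring and 0.053 without saturated spots. Paralogue pairs over 0.25 numbered 24 and 25 of 46 with the authors' deposited values. Among unsaturated probes they numbered 0 and 0, but only 3 pairs could be compared there. Genes whose sign turned with the authors' deposited values in NCB2-FRB were RPS12 (-0.0086), RPP1B (-0.33), RPP2B (-0.42) and RPP2A (0.37). In Mot1-FRB they were RPP2A (0.32) and RPS31 (-0.81). Of all these only RPS12 had passed the threshold in the main fit. RPP2B had -0.26 in NCB2-FRB with print-tip loess. The causes were not tested. A fit with slide or scan as a block was not run, since the headers used here give no batch. Signal above the limit on at least 1 array makes the size of change less certain for 105 members, and its part in their values was not tested.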
